A study of Mus musculus with 24 samples.

Results

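The plasminogen activator system was followed here through 5 of the 25229 genes in the count table, chosen by name, with earlier results of these data known: the activators Plau and Plat, the receptor Plaur, and the inhibitors Serpine2 and Serpinb2. RNA came from ID8 P53 KO cells, a mouse ovarian cancer line without functional p53, so every group shared this genotype. Treatment lasted 6 days and consisted of DMSO as the solvent control, cisplatin at 750 nM, AU15330 at 2.5 μM, or both compounds together at those doses, and each treatment had 6 libraries. Cisplatin is a platinum drug that damages DNA, and AU15330 is a PROTAC that targets Smarca4, an ATPase of the SWI/SNF chromatin remodeling complex. The study's methods give another cisplatin dose for these cells, and the dose used here is that of the labels. The labels do not say whether the replicates were separate cultures, so p-values measure the spread between these libraries, which may be technical. This is 1 cell line in culture, and no plasma or other source of plasminogen was part of the measurement.

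As background, plasmin is a serine protease that dissolves fibrin and cuts matrix proteins, and it circulates as its inactive precursor, plasminogen. Urokinase (encoded by Plau) and tissue-type plasminogen activator (Plat) convert plasminogen to plasmin, and the urokinase receptor (Plaur) holds urokinase at the cell surface. Inhibitors of the serpin family trap the activators, among them PAI-2 (Serpinb2) and protease nexin-1 (Serpine2). In ovarian cancer the system is known for its part in the invasion of the peritoneal lining, and urokinase is also secreted by senescent cells.

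Library depth ran from 17592588 to 25260009 counted reads, and levels are given as CPM (counts scaled to a common library size with TMM factors). In a library, 3 counts corresponded to 0.120 to 0.186 CPM, taken as the floor of detection, which covers counting error only. Of the 5 members, 4 were among the 12941 genes that passed the filter on low counts and were tested with edgeR's quasi-likelihood test. Serpine2 did not pass, and Serpinb2 passed through the cisplatin libraries, where it was highest. Of the 9 epithelial and mesothelial markers of ovarian surface cells, 8 were detected in every DMSO library and Epcam reached at most 2 counts, while Krt7 held at most 2 counts with AU15330 and at most 5 with the combination. Of the leukocyte markers, Ptprc, Adgre1, Csf1r and Itgam reached at most 5 counts in a library, but Cd68 reached 1110 and Cd14 243. Of the endothelial markers, Cdh5 and Kdr reached at most 3 counts and Pecam1 274. Of the fibroblast markers, Thy1 reached at most 4 counts, and Col1a1 12892 and Dcn 4976. Libraries of replicate 1, of replicates 2 and 3, and of replicates 4 to 6 tended to deviate together across treatments, with a mean correlation of 0.12 within these 3 sets and -0.08 between them. No label explains the sets, which were defined after the data were seen, and values within them are given for results that they divide.

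Plau rose with cisplatin, rose further with the combination, and was not changed detectably by AU15330 alone. The gene lies at chr14:20836660-20843385 on the plus strand (GRCm38). In DMSO its level was low, from 2.06 to 3.59 CPM with a median of 3.02 (46 to 69 reads). Cisplatin libraries held 11.96 to 13.7 CPM with a median of 12.6, and every one was above every DMSO library. AU15330 libraries held 2.00 to 3.47 CPM with a median of 2.63, which overlapped the DMSO libraries. Combination libraries held 23.1 to 42.3 CPM with a median of 34.1, and every one was above all 18 libraries of the other treatments.

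The rise of Plau with cisplatin was 4.33-fold, a log2 fold change of 2.11 (SE 0.144, adjusted p = 4.30e-12, edgeR's quasi-likelihood test). With AU15330 alone the log2 fold change was -0.14, with a 95% interval from -0.46 to 0.19 (adjusted p = 0.445, edgeR). Adding AU15330 to cisplatin raised Plau 2.55-fold over cisplatin, a log2 fold change of 1.35 (SE 0.125, adjusted p = 5.33e-10, edgeR). Against DMSO the combination was 11.1-fold higher (log2 fold change 3.47, SE 0.142, adjusted p = 4.08e-17, edgeR), and against AU15330 alone it was 12.1-fold higher (log2 fold change 3.60, adjusted p = 3.46e-15). The effect of AU15330 in the presence of cisplatin exceeded its effect in the absence of cisplatin by 1.49 on the log2 scale (SE 0.202, adjusted p = 3.47e-06, edgeR's interaction test). Within the 3 sets of replicate numbers this difference was 1.86, 1.64 and 1.21.

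Plat moved differently from Plau: it rose with cisplatin and fell with AU15330, whether or not cisplatin was present. The gene lies at chr8:22757727-22782844 on the plus strand. DMSO libraries ranged from 27.5 to 63.2 CPM with a median of 50.5, cisplatin libraries from 65.7 to 103 CPM with a median of 91.8, and these groups did not overlap. AU15330 libraries ranged from 13.1 to 18.1 CPM with a median of 16.2, below every other library. Combination libraries ranged from 31.3 to 37.8 CPM with a median of 32.3, inside the range of DMSO and below every cisplatin library.

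Cisplatin raised Plat 1.84-fold (log2 fold change 0.88, SE 0.156, adjusted p = 4.42e-05, edgeR's quasi-likelihood test). AU15330 alone lowered it 2.98-fold (log2 fold change -1.57, SE 0.162, adjusted p = 3.11e-09, edgeR), and adding AU15330 to cisplatin lowered it 2.63-fold (log2 fold change -1.39, SE 0.157, adjusted p = 2.01e-08, edgeR). These effects of AU15330 differed by 0.18 on the log2 scale, with an interval from -0.28 to 0.64 (adjusted p = 0.566, edgeR's interaction test). The combination was 2.08-fold above AU15330 alone (log2 fold change 1.06, adjusted p = 1.08e-05, edgeR). Against DMSO it was lower by a log2 fold change of -0.52 (SE 0.158, adjusted p = 0.00522, edgeR), but this difference was -0.60 in replicate 1, 0.13 in replicates 2 and 3, and -0.77 in replicates 4 to 6. In DMSO, replicates 2 and 3 had the lowest Plat of that group, at 31.7 and 27.5 CPM.

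**Figure D1:**
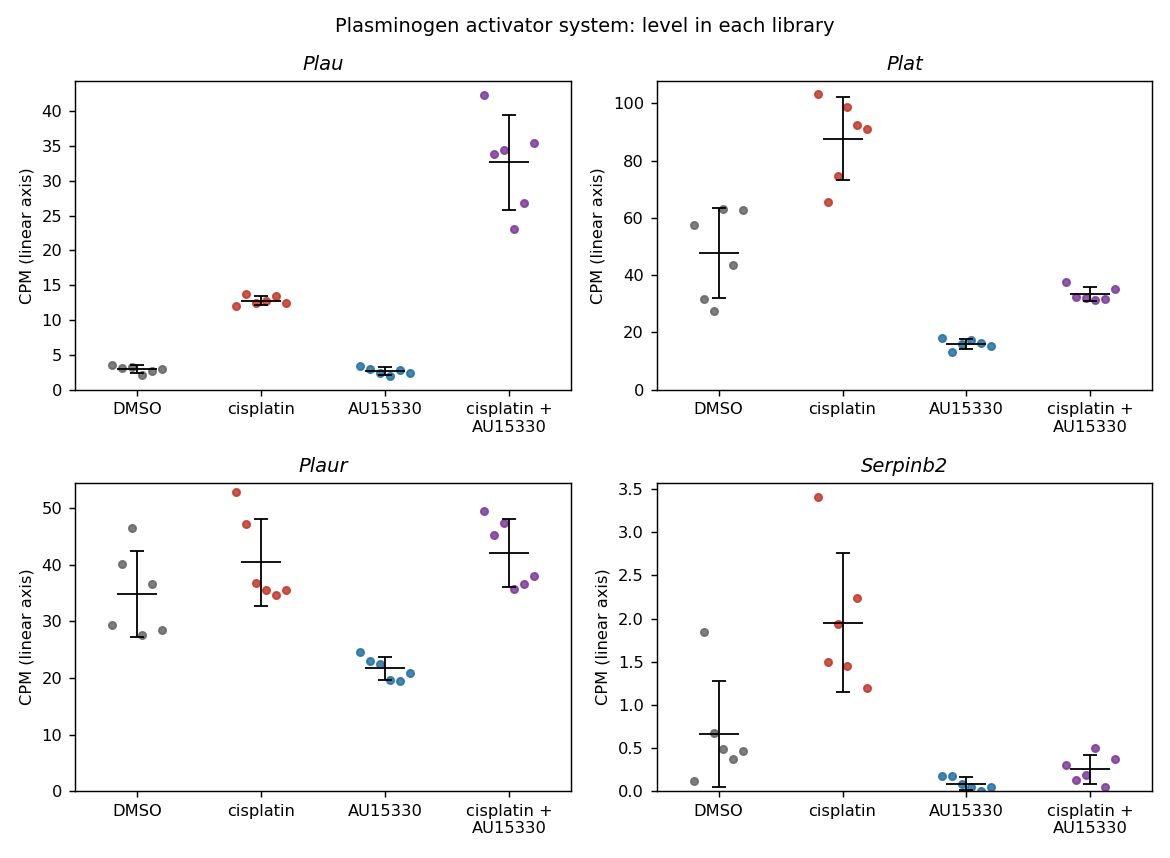
Level of Plau, Plat, Plaur and Serpinb2 in each of the 24 libraries, in CPM on linear axes that start at 0, by treatment. Points are libraries in the order of their replicate numbers, horizontal bars are means and vertical bars are SD (n = 6). Plau is highest in the combination (23.1 to 42.3 CPM), and the means of Plat, Plaur and Serpinb2 are lowest with AU15330 alone.

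The makeup of activator mRNA differed between treatments, with the highest share of Plau in the combination. Per kilobase of exon, Plau was at 1.25 CPM and Plat at 7.65 CPM in DMSO, means over 6 libraries, so that Plat was the more abundant. Plau made up 15.3% ± 5.99 (SD, n = 6) of the sum of both activators per kilobase in DMSO, 28.1% ± 4.32 with cisplatin, 30.6% ± 4.87 with AU15330 and 71.6% ± 3.35 with the combination. In every combination library Plau exceeded Plat on this scale, with a share of 66.0% to 74.7%, and in the other 18 libraries the share was at most 37.6%. The lengths are those of all annotated exons, 2.367 kb for Plau and 6.241 kb for Plat, and may differ from the transcripts expressed here. In reads both genes were about equal in the combination, with mean CPM of 32.6 for Plau and 33.4 for Plat. Plat had more reads than Plau in replicate 4 (689 and 508) and in replicate 5 (659 and 560). The ratio of Plau to Plat was 14.9-fold higher with the combination than in DMSO and 6.53-fold higher than with cisplatin. Each of these differences had p = 0.00216 in a two-sided exact permutation test over libraries, the smallest p that 6 against 6 allows (adjusted over 12 tests of ratios, 0.00289). AU15330 and cisplatin alone gave ratios that could not be told apart (1.12-fold, exact permutation p = 0.379).

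**Figure D2:**
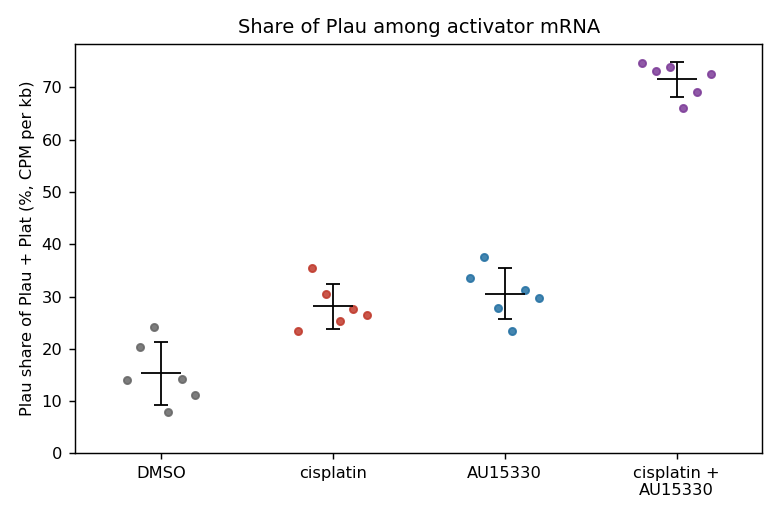
Share of Plau in the sum of Plau and Plat, in percent of CPM per kilobase of exon, by treatment. Points are libraries, horizontal bars means and vertical bars SD (n = 6), on a linear axis from 0. The combination libraries lie above all others, with shares of 66.0% to 74.7%.

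Plaur was lower with AU15330 alone than with any other treatment. Differences among the remaining treatments did not pass the threshold, and for the combination against DMSO this depended on the setting. The gene lies at chr7:24462484-24475968 on the plus strand. DMSO libraries ranged from 27.6 to 46.5 CPM with a median of 33.0, and cisplatin libraries from 34.6 to 52.8 CPM with a median of 36.1. AU15330 libraries ranged from 19.6 to 24.7 CPM with a median of 21.7, below every library of the other treatments. Combination libraries ranged from 35.7 to 49.4 CPM with a median of 41.6, and overlapped both DMSO and cisplatin.

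AU15330 alone lowered Plaur 1.60-fold (log2 fold change -0.68, SE 0.130, adjusted p = 4.77e-05, edgeR's quasi-likelihood test). In the presence of cisplatin, AU15330 gave a log2 fold change of 0.06, with a 95% interval from -0.21 to 0.32 (adjusted p = 0.702, edgeR). The difference between these effects was 0.74 on the log2 scale (SE 0.183, adjusted p = 0.00291, edgeR's interaction test), and within the 3 sets of replicate numbers it was 0.16, 1.07 and 0.67. The combination was 1.94-fold above AU15330 alone (log2 fold change 0.95, adjusted p = 2.04e-06, edgeR). Cisplatin against DMSO gave 0.21 on the log2 scale, with an interval from -0.05 to 0.48 (adjusted p = 0.168, edgeR). That value was 0.84 in replicate 1, -0.05 in replicates 2 and 3 and 0.20 in replicates 4 to 6, and without replicate 3 it was 0.37 with an adjusted p of 0.0363 (edgeR). The combination against DMSO gave 0.27 (interval 0.01 to 0.54, adjusted p = 0.0588, edgeR), and within the sets it was 0.75, 0.10 and 0.26. It passed the threshold without replicate 3 (0.34, adjusted p = 0.0347, edgeR), with the 3 sets as a block (0.27, adjusted p = 0.0103) and with library totals as the scaling (0.41, adjusted p = 0.00597). Both comparisons of Plaur with DMSO that missed the threshold thus passed it without replicate 3, the DMSO library of which had the highest Plaur of its group.

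Serpinb2 was highest with cisplatin and held at most 11 reads in any library with AU15330. PAI-2 inhibits urokinase and is found mostly inside cells. The gene lies at chr1:107511423-107535478 on the plus strand, and its annotated span shares 6476 bases with Serpinb10 on the same strand, which reached at most 8 counts in a library. Cisplatin libraries held 29 to 76 reads, or 1.19 to 3.40 CPM with a median of 1.72. DMSO libraries held 2 to 38 reads, or 0.124 to 1.85 CPM with a median of 0.479, and 3 of the 6 cisplatin libraries were above all of them. AU15330 libraries held 0 to 4 reads and combination libraries 1 to 11 reads, with medians of 0.0672 and 0.247 CPM, and every one of these 12 libraries was below every cisplatin library.

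Because Serpinb2 entered the test through its cisplatin libraries, the comparisons with cisplatin are given as values that the filter partly fixed. Cisplatin against DMSO gave a 2.87-fold difference, a log2 fold change of 1.52 (SE 0.408, adjusted p = 0.00258, edgeR's quasi-likelihood test), and with no filter on low counts it was 1.51 (adjusted p = 0.00351). The sets of libraries gave 4.02, 0.56 and 1.64 for this comparison. AU15330 alone gave a log2 fold change of -2.80 (SE 0.719, adjusted p = 0.000222, edgeR), and adding it to cisplatin gave -2.89 (SE 0.491, adjusted p = 3.77e-06, edgeR). With no filter these were -2.82 and -2.92 (adjusted p = 0.000155 and 2.21e-06, edgeR). Within the sets, AU15330 alone gave 0.33, -2.50 and -2.12. The values for AU15330 alone rest on few reads: 1 of its libraries held none, and in replicate 1 the DMSO and AU15330 libraries held 2 and 4 reads. The AU15330 mean, 0.0897 CPM, was below the floor, so the size of that fold change is uncertain. The effects of AU15330 with and without cisplatin differed by -0.09 on the log2 scale, with an interval from -1.88 to 1.71 (adjusted p = 0.981, edgeR's interaction test). The combination against AU15330 alone gave 1.44 (SE 0.769, adjusted p = 0.106, edgeR), and without replicate 2 it was 1.86 (adjusted p = 0.0336). The combination was below DMSO by a log2 fold change of -1.37 (SE 0.529, adjusted p = 0.0186, edgeR). That call rested on single replicate numbers: within the sets it was 0.87, -2.28 and -0.66, and over all libraries it was -0.61 without replicate 2 (adjusted p = 0.277, edgeR) and -1.29 without replicate 3 (adjusted p = 0.0622). The highest DMSO library, replicate 2, held 38 of the reads, and without replicate 2 the change with cisplatin was 2.21, against 1.09 without replicate 1.

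Serpine2, at chr1:79794197-79861180 on the minus strand, had no read in 23 of the 24 libraries. The exception was replicate 3 of the combination, with 4 reads, 0.192 CPM, all from 1 of its 2 sequencing lanes. Protease nexin-1 transcripts were therefore at or about the limit that a count of 0 allows under every treatment. No fold change was computed.

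RefSeq promoter windows (GRCm38.p6) were held for 3 of the 5 members, and the 250 bases before the start site are printed for Plaur and Serpinb2, which were both lower with AU15330 alone. For Serpinb2 this is the window of the first annotated start site, and a second RefSeq window starts downstream of it. The AP-1 motif, TGANTCA searched on both strands, is in capitals. AP-1 is the family of dimers of Fos and Jun proteins.

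Plaur, chr7:24462233-24462482, plus strand: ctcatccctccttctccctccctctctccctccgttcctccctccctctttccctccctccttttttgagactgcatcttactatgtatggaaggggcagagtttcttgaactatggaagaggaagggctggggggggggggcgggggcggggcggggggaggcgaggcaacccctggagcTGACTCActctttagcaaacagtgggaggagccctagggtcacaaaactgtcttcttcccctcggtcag
Serpinb2, chr1:107511173-107511422, plus strand: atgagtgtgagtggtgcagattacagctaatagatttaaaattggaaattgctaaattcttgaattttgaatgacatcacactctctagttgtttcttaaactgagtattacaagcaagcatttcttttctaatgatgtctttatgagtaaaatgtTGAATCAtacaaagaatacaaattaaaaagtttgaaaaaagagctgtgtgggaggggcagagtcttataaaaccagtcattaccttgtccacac

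The Plaur match, TGACTCA, began 69 bases before the start site and the Serpinb2 match, TGAATCA, 94 bases before it. Of 32851 windows of the same length, 6.75% held this motif. The Plaur window held GGGCGG, the GC box, at 3 positions and was 59.6% G and C, while the Serpinb2 window held TATAAA 29 bases before the start site and was 32.4% G and C with no CpG (the median window had 52.4%). GGGCGG occurred in 32.7% of windows and TATAAA in 12.4%. The second Serpinb2 window held the same AP-1 and TATAAA matches, 181 and 116 bases before its own start site, with 38.4% G and C and 3 CpG. The Serpine2 window had no AP-1 match, 78.8% G and C and 34 CpG. Neither TGACGTCA (the CRE, in 1.55% of windows) nor GGAATG (the TEAD motif, in 12.6%) occurred in any of these windows. A match describes letters and was not tested as a binding site.

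Levels per kilobase of exon compare genes only roughly, since the length is that of all annotated exons. In CPM without the length, mean Plat was above mean Plaur in DMSO (47.7 and 34.8) and with cisplatin (87.7 and 40.4). Per kilobase, the receptor was the most abundant member in DMSO, with Plaur at 13.3 CPM, Plat at 7.65, Plau at 1.25 and Serpinb2 at 0.283 as group means. With cisplatin Plaur (15.4) and Plat (14.1) were close, above Plau (5.40) and Serpinb2 (0.832). With AU15330 the means were 8.29 for Plaur, 2.57 for Plat, 1.13 for Plau and 0.0382 for Serpinb2. With the combination Plaur (16.1) and Plau (13.8) were on top, above Plat (5.35) and Serpinb2 (0.110).

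Since most tested genes responded to at least 1 treatment, the count of members called stands beside the share of all tested genes called. Serpinb2 is left out of these counts because it owed its test to 1 group. With cisplatin against DMSO, 2 of the other 3 tested members were called, both higher, where 51.7% of all tested genes were called (26.0% higher, 25.7% lower). With library totals as the scaling, the split over all genes was 3977 higher and 2529 lower, against 3360 and 3329 with TMM. With AU15330 against DMSO, 2 of 3 were called, both lower, where 73.4% of genes were called (36.2% higher, 37.2% lower). With the combination against cisplatin, 1 was higher and 1 was lower, beside 68.1% of genes (35.4% higher, 32.7% lower), and against DMSO likewise 1 was higher and 1 was lower, beside 73.3% (36.8% higher, 36.5% lower). Against AU15330 alone the combination had 3 of 3 higher, beside 41.7% of genes (22.2% higher, 19.5% lower). AU15330 against cisplatin had 3 of 3 lower, beside 73.1% of genes (35.8% higher, 37.3% lower). The interaction was called for 2 of 3, both positive, beside 33.7% of genes (17.9% positive, 15.8% negative). Library totals split the interaction calls as 1791 positive and 2506 negative, against 2313 and 2048 with TMM. Comparisons that share a group share its libraries, so they do not count as separate evidence.

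**Figure D3:**
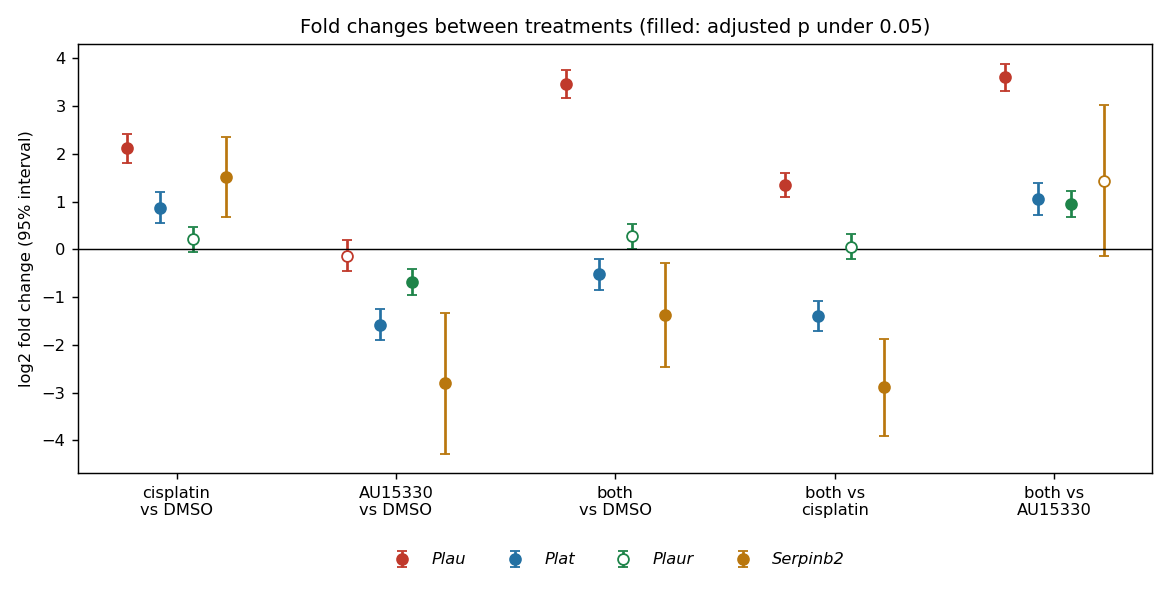
Log2 fold changes of the 4 tested members in 5 comparisons, with 95% intervals; filled points have an adjusted p under 0.05 in edgeR's quasi-likelihood test, and "both" stands for cisplatin with AU15330. Plau lies above 0 in every comparison in which cisplatin is added, from 2.11 to 3.60, and also where AU15330 is added to cisplatin (1.35), while Plat and Serpinb2 lie below 0 wherever AU15330 is added.

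The epithelial and mesothelial markers moved with both agents. Of these 9 genes 8 were tested, and all 8 were lower with AU15330 than with DMSO, where 37.2% of all tested genes were lower. With cisplatin 6 of the 8 were higher and 0 lower, where 26.0% of all tested genes were higher. The 8 include Krt7, which passed the filter through the cisplatin libraries, where it was highest, so that the filter partly fixed its values. It held 96 to 125 counts there, 9 to 45 in DMSO, 0 to 2 with AU15330 and 0 to 5 with the combination. The summed level of the 9 genes ranged from 1018 to 1150 CPM with AU15330, from 1223 to 1404 CPM with the combination, from 3513 to 5309 CPM in DMSO and from 4178 to 4854 CPM with cisplatin. Their part in the changes of Plat, Plaur and Serpinb2 was not tested. In bulk RNA, fewer cells that express a gene and less of its RNA per cell cannot be told apart. The summed leukocyte markers were at 12.7 to 30.6 CPM in DMSO, up to 18.6 with cisplatin, 17.5 to 53.5 with AU15330 and 25.1 to 42.9 with the combination, and of these 6 genes Cd68 and Cd14 passed the filter. With AU15330 these moved apart, with log2 fold changes of 1.56 for Cd68 and -3.96 for Cd14. The 4 endothelial markers summed to 2.87 to 4.28 CPM in DMSO, 8.51 to 12.8 with cisplatin, 0.261 to 0.763 with AU15330 and 0.483 to 1.20 with the combination, where Pecam1 passed the filter and the defining Cdh5 and Kdr did not. The 4 fibroblast markers summed to 227 to 641 CPM in DMSO, 364 to 449 with cisplatin, 111 to 173 with AU15330 and 194 to 292 with the combination, with Thy1 not passing the filter. Most of that sum was Col1a1, which gave -2.38 with AU15330, while Dcn and Pdgfra each gave 0.90. The part of these genes in the results was not tested either.

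Around the members, 51 genes that supply, restrain or bind the system were listed, of which 32 passed the filter on low counts. With cisplatin 21 of the 32 were called (14 higher, 7 lower), with AU15330 27 (13 higher, 14 lower), and with the combination against cisplatin 25 (10 higher, 15 lower). Of the 32, Serpinb7 passed the filter mainly through AU15330, with 5 libraries at the cutoff there and 1 in the combination. Without it 26 were called with AU15330 (12 higher, 14 lower). The counts over the 32 are 65.6%, 84.4% and 78.1%, beside 51.7%, 73.4% and 68.1% of all tested genes. Their median log2 fold change was 0.23 with cisplatin and -0.07 with AU15330, where the median of all tested genes was -0.0041 and -0.0030.

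The substrate itself was not made by these cells in a detectable amount: Plg had no read in 21 libraries and at most 2 in the others. Of the proteins that hold plasminogen at the surface, S100a10 rose 1.26 on the log2 scale with AU15330 (adjusted p = 7.75e-09, edgeR's quasi-likelihood test) and 1.31 with the combination against cisplatin. Anxa2, the annexin that pairs with S100a10, rose by 0.74 and 1.05 in the same comparisons (adjusted p = 3.05e-06 and 1.44e-08, edgeR), and fell by 0.37 with cisplatin. The plasminogen receptor Plgrkt rose by 0.24 with AU15330 (adjusted p = 0.00729, edgeR). Eno1, whose surface form binds plasminogen, fell by 0.50 with AU15330 and by 0.62 with cisplatin (adjusted p = 0.0151 and 0.00606, edgeR), and its reads may be split with a near-identical copy. In this list, 5 genes were tested, and with AU15330 4 were higher and 1 was lower, where 36.2% of all tested genes were higher and 37.2% lower. The fourth that was higher, Serpinf2, named after its values were seen, encodes alpha-2-antiplasmin, an inhibitor of plasmin and not a surface binding protein. It held 0 to 9 counts per library in DMSO, 2 to 13 with cisplatin, 4 to 16 with AU15330 and 35 to 54 with the combination, so its DMSO mean (0.119 CPM) was at the floor and no fold change is given. Without it, 3 of 4 were higher and 1 was lower.

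Among other inhibitors, Serpini1, which encodes neuroserpin, an inhibitor of tissue-type plasminogen activator, rose from a mean of 0.275 ± 0.105 CPM (SD, n = 6) in DMSO to 11.6 ± 2.47 CPM with AU15330 and 10.95 ± 1.82 CPM with the combination. These were log2 fold changes of 5.37 and 5.28 against DMSO (adjusted p = 8.42e-16 and 1.40e-15, edgeR's quasi-likelihood test). The DMSO libraries held 2 to 9 counts of Serpini1, the lowest at 0.0965 CPM, under the floor, so the size of these changes is uncertain. Serpinb8 rose by 2.08 with cisplatin (adjusted p = 1.56e-12, edgeR), and adding AU15330 to cisplatin gave -1.18 (adjusted p = 7.96e-09). AU15330 alone gave 0.41 (adjusted p = 0.00798, edgeR), the opposite sign, and the interaction was -1.59 (adjusted p = 3.31e-07). Serpinb6a gave -0.25 with AU15330 and -0.40 when it was added to cisplatin (adjusted p = 0.0147 and 0.000312, edgeR). Serpina5 reached at most 2 counts and A2m at most 7. Of 11 other serpins of the members' clades, 6 were tested, and with AU15330 4 were higher (3 without Serpinb7) and 2 lower, where 36.2% of all tested genes were higher and 37.2% lower. Serpinb9 gave 4.22 and Serpinb1a 3.56, while Serpinb9b gave -2.11 and Serpinb11 -1.34 (adjusted p = 2.19e-21, 1.71e-13, 4.18e-11 and 0.0169, edgeR). With cisplatin 4 of the 6 were higher and 0 lower, beside 26.0% of all tested genes higher, with 3.52 for Serpinb1a, 2.67 for Serpinb9b, 0.99 for Serpinb9 and 0.87 for Serpinb6b. Reads of Serpinb9 and Serpinb9b, and of Serpinb6a and Serpinb6b, could be split by the counting.

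Of 10 tested receptor partners and clearance receptors, 3 were higher and 3 lower with AU15330, which is 60.0% called beside 73.4% of all tested genes. Itgb3, the integrin chain that pairs with Itgav, fell from a mean of 130.1 ± 18.1 CPM (SD) in DMSO to 14.4 ± 4.11 CPM with AU15330 (log2 fold change -3.17, adjusted p = 1.62e-15, edgeR's quasi-likelihood test), while Itgav rose by 0.76 (adjusted p = 2.31e-06). Lrp1, the receptor that takes up complexes of activators and inhibitors, was lower in the combination than with any other treatment. Its log2 fold changes were -0.76 against cisplatin, -0.84 against DMSO and -0.76 against AU15330 (adjusted p = 9.17e-06, 2.09e-06 and 3.66e-05, edgeR), and it was -0.08 for AU15330 against DMSO (adjusted p = 0.573). Igf2r, which binds both Plaur and latent growth factors, and Sorl1, a sorting receptor, were lower with AU15330 (-0.92 and -0.60, adjusted p = 1.84e-06 and 8.42e-06, edgeR) and lower again when it was added to cisplatin (-1.09 and -1.27). Vldlr, a receptor of the same family as Lrp1, fell by 1.26 with cisplatin (adjusted p = 7.42e-07, edgeR), and Mrc2, an endocytic collagen receptor that binds Plaur, rose by 0.52 (adjusted p = 0.000255).

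Of 9 listed coagulation genes of the cell surface, 7 were tested, and with AU15330 6 were lower and 0 higher, with a median log2 fold change of -1.31. Of all tested genes 37.2% were lower, with a median of -0.0030. The exception, F2rl2, gave -0.05 (adjusted p = 0.874, edgeR). F2rl1, the protease-activated receptor cut by trypsin-like proteases, gave -6.47 with AU15330 (adjusted p = 1.98e-15, edgeR's quasi-likelihood test). Its mean went from 14.8 ± 5.01 CPM (SD) to 0.158 ± 0.107 CPM, which is at the floor, so the size of this fall is uncertain. F2r, the thrombin receptor, gave -1.75 (adjusted p = 3.90e-13, edgeR). F3, which encodes tissue factor, gave -1.24 with AU15330 alone (adjusted p = 1.34e-10, edgeR), but adding AU15330 to cisplatin gave 0.69 (adjusted p = 2.97e-06), and its interaction was 1.94 (adjusted p = 3.88e-10). Procr, the protein C receptor, had the same signs as F3, with -1.28 for AU15330 alone and 0.52 when added to cisplatin (adjusted p = 2.21e-09 and 0.000974, edgeR) and an interaction of 1.79 (adjusted p = 4.06e-08). Tfpi, the inhibitor of tissue factor, gave -1.31 and -0.96 in those comparisons (adjusted p = 2.32e-07 and 6.59e-06, edgeR), and its interaction of 0.35 did not pass the threshold (adjusted p = 0.263). Against AU15330 alone, the combination was higher for 6 of the 7 and lower for 0, beside 22.2% of all tested genes higher and 19.5% lower. The 6 surface serine proteases and inhibitors listed (St14, Hpn, Prss8, Tmprss4, Spint1 and Spint2) did not pass the filter on low counts.

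**Figure D4:**
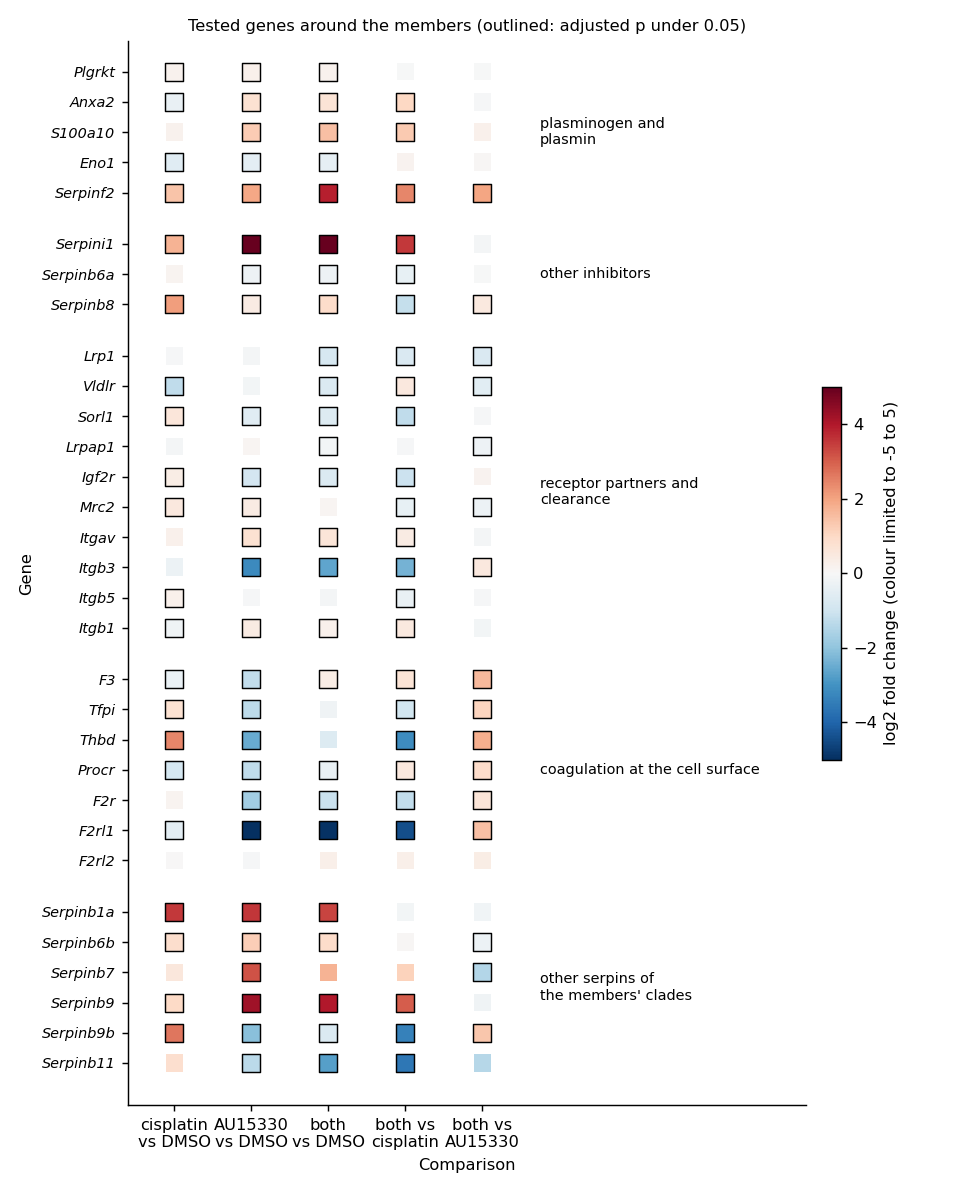
Log2 fold changes, by colour, of the tested genes around the members in 5 comparisons (columns; "both" stands for cisplatin with AU15330), with genes as rows grouped by role; squares outlined in black have an adjusted p under 0.05 in edgeR's quasi-likelihood test. The colour scale ends at -5 and 5, so that Serpini1 (5.37 with AU15330) and F2rl1 (-6.47) are beyond it. With AU15330, 6 of 7 coagulation genes are lower.

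The genes whose pattern over the 24 libraries was most like that of each member were described by Pearson correlation of log2 CPM, among 9782 genes. For Plau they were Cdca7 (0.964), Nup50 (0.963) and Msh6 (0.953), for Plat they were Inhbb (0.981), Nek6 (0.976) and Flt4 (0.973), and for Plaur they were Nans (0.936), Ankrd1 (0.932) and Tinf2 (0.913). These correlations run over 4 treatments that differ widely, and libraries of a treatment are not independent points. Serpinb2 was too low for this description.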

How the data were processed

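RNA was measured in 24 libraries of polyadenylated RNA. The authors aligned single-end reads with STAR 2.7.1a to mm10, per the submitters' processing notes, and deposited counts without normalization for 25229 genes named by symbol. How reads were counted, and with which annotation and strand setting, was not given in the sources used here. All 48 columns matched a library by name (0 did not), and counts of the 2 lanes were added up per library. Library totals were 17592588 to 25260009.

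The quasi-likelihood F test of edgeR 4.0.16 (R 4.3.3) was fitted to the counts of all 4 groups, with TMM factors and the filterByExpr filter, which left 12941 genes and 20 residual degrees of freedom. P-values were adjusted by the Benjamini-Hochberg method across those genes and called under 0.05. CPM used TMM-scaled library sizes, and log2 CPM a prior count of 2. Exon lengths came from GENCODE vM21 (GRCm38) and promoters from RefSeq (GRCm38.p6). DESeq2 1.42.0 was one alternative, beside other scalings, no filter, a replicate block, fits of 2 groups and omitted replicates. The pipeline was tested on simulated data.

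The members and lists were chosen with earlier results of these data known. Genes were named from the members, Plg and up to 4 called genes per list and comparison with the largest changes and a mean log2 CPM of at least 1, plus the 3 genes most like each member. Serpinf2, F2rl2, Serpinb7 and untested genes such as Serpina5 and A2m are outside this rule and were named after their values were seen, to account for their lists. Cell type markers are named from their own lists. A gene that the rule also covers is not reported here.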

Additional observations from a re-analysis of the deposited data

Results flagged for a closer look

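Serpinb2 in DMSO had a distant library: replicate 2 was the highest, and its gap to the next library was 0.681 of the range of the group. Serpine2 in the combination had a distant library in replicate 3, with a gap of 1.0 of the range, since the other 5 libraries of that group held no read. In all, 21 groups of libraries were searched, of which chance would pick about 1.05, and 2 were found.

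The effect of AU15330 with cisplatin exceeded its effect without cisplatin for Plau by 1.49 and for Plaur by 0.74 on the log2 scale, both called by edgeR's interaction test (adjusted p = 3.47e-06 and 0.00291). For Plau, the effect was -0.14 without cisplatin and 1.35 with it, and for Plaur it was -0.68 and 0.06.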

How the results depend on the processing

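Of the 3 tested members other than Serpinb2, the number called went from 2 to 3 for the combination against DMSO with library totals, the replicate block, the 3 sets of replicate numbers as a block and without replicate 3, and for cisplatin against DMSO without replicate 3, by Plaur in each case. It was the same in the other comparisons under all alternatives run. The number of other genes of the system called stayed within 1.5 times its value, and of 357 alternative log2 fold changes of the members 346 kept their direction and side of the threshold. The exceptions were Plaur and Serpinb2. Plaur in the combination against DMSO passed the threshold with library totals (0.41), with the replicate block (0.27, adjusted p = 0.0154, edgeR), with the 3 sets of replicate numbers as a block (0.27, adjusted p = 0.0103), and in 1 omission of a replicate (range 0.12 to 0.34). Without each replicate in turn, Plaur ran from 0.064 to 0.37 for cisplatin against DMSO and from -0.026 to 0.086 for the combination against cisplatin, where it turned negative without replicate 3. Serpinb2 ran from -1.74 to -0.61 for the combination against DMSO, from 1.01 to 1.86 for the combination against AU15330, and from -0.50 to 0.55 for the interaction, which was positive without replicate 1 (0.55) and without replicate 5 (0.04). The cause was not tested.

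Library totals shifted the median of all genes by 0.13 for AU15330 and 0.14 for the combination against DMSO. Fits of 2 groups gave no value for Serpinb2 in AU15330 against DMSO, the combination against DMSO or the combination against AU15330, since it did not pass their filter. For the other named genes, 1491 of 1556 alternative values kept direction and side of the threshold, 63 no longer passed it, 2 newly passed it and 0 changed sign. Same-numbered libraries were not pairs by the labels: their deviations correlated at 0.145 on average, from -0.133 to 0.483, with 23 of 36 over 0.1, and 10 of 24 libraries were most like their own number. The replicate block changed no other call of a member. Depth limits Serpinb2 and Serpine2.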

Other observations

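Other serpins of the clades of Serpinb2 and Serpine2, which inhibit proteases inside and outside cells, were also measured. Of 11 listed, 6 were tested, and with AU15330 4 were higher and 2 lower, with a median log2 fold change of 2.21, where 36.2% of all tested genes were higher, 37.2% were lower and the median was -0.0030. These values include Serpinb7, which passed the filter mainly through the AU15330 libraries, where it was highest. Without Serpinb7, 3 of 5 were higher and 2 lower, and the middle value of the 5 was 1.24, that of Serpinb6b. Serpinb9, an inhibitor of granzyme B, rose from a mean of 70.3 ± 10.7 CPM (SD, n = 6) in DMSO to 1313 ± 175 CPM with AU15330 and 1124 ± 106 CPM with the combination, log2 fold changes of 4.22 and 4.00 (adjusted p = 2.19e-21 and 9.47e-21, edgeR's quasi-likelihood test). Its neighbour in sequence, Serpinb9b, gave 2.67 with cisplatin and -2.11 with AU15330 (adjusted p = 1.17e-13 and 4.18e-11, edgeR). Serpinb1a, an inhibitor of neutrophil proteases, rose from a mean of 1.18 ± 0.705 CPM (SD) to 13.2 ± 2.90 CPM with cisplatin, 13.5 ± 2.04 CPM with AU15330 and 12.1 ± 2.08 CPM with the combination. Its interaction was -3.68 (adjusted p = 3.40e-10, edgeR).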
